A study of Mus musculus with 12 samples.

Results

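White adipose tissue was compared between the subcutaneous pad (scWAT) and the epididymal pad (epWAT) of mice lacking C2orf74 (KO) that had been fed a high-fat diet. The 6 KO libraries, of 12 in the whole series, were those whose labels gave the genotype as C2orf74 KO: 3 of scWAT and 3 of epWAT, each set from the animals coded C7, C34 and C695. A shared code was read as a shared mouse, so that each KO mouse gave 1 library of each pad. The other 6 libraries came in the same way from wild-type (WT) mice C75, C85 and C99. All mice, WT included, began the high-fat diet at 8 weeks of age and stayed on it for 12 weeks, so no group on another diet was available for comparison. The labels gave neither the strain nor the way in which the allele was made. Each library was RNA-seq of a whole pad, deposited as FPKM, a level scaled to gene length and library depth. The depths recovered from those values were 16828570 to 17470262 reads for KO scWAT, 15011093 to 17294388 for KO epWAT, 16192574 to 18311564 for WT scWAT and 17574947 to 18263864 for WT epWAT.

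The subcutaneous pad lies under the skin and the epididymal pad inside the abdomen, and their adipocytes arise from different embryonic mesoderm. Adult fat keeps a record of that origin in its homeobox and T-box transcription factors, which differ between depots. The epididymal pad is also covered by mesothelium, a sheet of epithelium-like cells that lines the body cavity and that subcutaneous fat lacks. In the mouse the inguinal subcutaneous pad is known for a greater capacity to form thermogenic (beige) adipocytes and the epididymal pad for its macrophage infiltration in obesity.

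The promoters of the genes below are shown because they belong to transcription factors and mesothelial genes that differed between the KO pads. The first was higher in scWAT and the other 3 were lower. Each window runs from 250 bases before the start of the gene to 50 after it, in the direction of transcription. The sequences are from RefSeq (GRCm38.p6). Shox2 lies at chr3:66981722-66982021 on the minus strand and Upk3b at chr5:136038246-136038545 on the plus strand. Rspo1 lies at chr4:124986180-124986479 on the plus strand and Tcf21 at chr10:22820094-22820393 on the minus strand. Capitals mark matches, on either strand, to the E-box CANNTG, the T-box half-site GGTGTG, the TATA box TATAAA or the GC box GGGCGG.
Shox2: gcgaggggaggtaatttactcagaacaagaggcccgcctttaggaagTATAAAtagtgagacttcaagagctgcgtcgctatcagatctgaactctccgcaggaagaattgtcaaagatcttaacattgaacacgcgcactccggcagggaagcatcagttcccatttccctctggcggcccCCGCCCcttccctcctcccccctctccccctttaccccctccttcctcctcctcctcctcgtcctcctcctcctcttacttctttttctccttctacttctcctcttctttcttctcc
Upk3b: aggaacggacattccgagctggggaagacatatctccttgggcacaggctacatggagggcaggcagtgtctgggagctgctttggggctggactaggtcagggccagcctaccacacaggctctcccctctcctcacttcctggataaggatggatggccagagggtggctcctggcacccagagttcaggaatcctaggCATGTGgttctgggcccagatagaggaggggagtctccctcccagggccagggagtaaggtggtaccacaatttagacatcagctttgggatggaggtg
Rspo1: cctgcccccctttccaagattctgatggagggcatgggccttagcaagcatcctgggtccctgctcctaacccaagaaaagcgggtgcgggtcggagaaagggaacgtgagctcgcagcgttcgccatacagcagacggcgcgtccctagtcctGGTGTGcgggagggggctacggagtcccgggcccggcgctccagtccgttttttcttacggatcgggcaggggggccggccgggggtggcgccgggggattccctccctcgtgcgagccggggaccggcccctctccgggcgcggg
Tcf21: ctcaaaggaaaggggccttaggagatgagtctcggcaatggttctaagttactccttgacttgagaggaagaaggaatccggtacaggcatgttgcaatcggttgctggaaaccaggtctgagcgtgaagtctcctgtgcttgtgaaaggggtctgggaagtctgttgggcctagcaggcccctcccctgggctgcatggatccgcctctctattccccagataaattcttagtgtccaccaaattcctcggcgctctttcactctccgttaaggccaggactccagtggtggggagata
The Shox2 window held 1 TATA box and 1 GC box (in reverse), the Upk3b window 1 E-box, and the Rspo1 window 1 T-box half-site. None of the 4 motifs was found in the Tcf21 window, and no matches overlapped. Of 32851 promoters of the same length, 72.3% held the E-box, 19% the T-box half-site, 13.6% the TATA box and 35.7% the GC box. Guanine and cytosine made up 53.3% of the Shox2 window, 58.7% of the Upk3b window, 69.0% of the Rspo1 window and 53.3% of the Tcf21 window, against a median of 52.7% over all promoters. A match is a description of the letters and no evidence of binding. Tbx15, Hoxc10, Msln, Wt1 and Upk1b are named below without a promoter.

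The genes that separated the KO pads included developmental transcription factors and nerve-sheath genes, higher in scWAT, and mesothelial genes, lower in scWAT. A gene was tested where 3 or more of the 6 KO libraries had an FPKM of 1 or above. Of the 12623 such genes 90 (0.713%) passed limma's moderated test on log2(FPKM + 1) at a Benjamini-Hochberg adjusted p under 0.05. They comprised 36 genes higher in scWAT (0.285% of those tested) and 54 lower in scWAT (0.428%), and these genes are said below to have risen or fallen. Their median log2 difference, scWAT minus epWAT, was 1.64 for the higher genes and -1.32 for the lower ones, and 69 of the 90 differed by at least 1 on the log2 scale. The median over all tested genes was 0.06. Of the 90 genes, 27 belonged to the gene lists used here and 63 to none.

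The mice can be paired, and with mouse as a block in the fit 12 genes passed (0.0951% of those tested), all of them among the 90. Among them were Tbx15, Hoxc10 and Cyp2f2, higher in scWAT, and Upk3b, Msln, Penk, Rspo1, Upk1b, Cilp and Gm9696, lower in scWAT. Over the 90 genes the adjusted p with the block was 0.0132 to 0.165. In all 90 the 3 scWAT values lay outside the range of the 3 epWAT values, which was true of 2828 tested genes in all (22.4%). An unadjusted p under 0.05 was reached by 1840 genes (14.6%).

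The count of 90 rested on all 6 libraries. Without KO scWAT C7, C34 or C695 it was 11, 11 and 36, and without KO epWAT C7, C34 or C695 it was 32, 7 and 31, with the filter on low values applied afresh. That filter then removes genes present only in the pad that lost a library, where 3 libraries above the minimum no longer exist. With the genes tested held as in the full set, an alternative added after those values were seen, the counts were 20, 28 and 84 without the scWAT libraries and 51, 21 and 62 without the epWAT libraries.

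Libraries KO scWAT C695 and KO epWAT C7 stood apart in markers of other tissues. The 20 epididymis and germ cell markers summed to 437.6 FPKM in KO epWAT C7, led by Crisp1 at 219 and Tnp2 at 59.5 FPKM, against 10.24 FPKM in KO epWAT C695, 0.366 in KO epWAT C34 and 0.3808 to 2.896 in KO scWAT. The 30 B, T and NK cell markers summed to 565.5 FPKM in KO scWAT C695, with Cd79a of B cells at 75.8, against 17.28 to 58.41 FPKM in the other 5 KO libraries. Skeletal muscle markers summed to 45.33, 427.2 and 202.4 FPKM in KO scWAT C7, C34 and C695, against 69.49 to 88.47 FPKM in KO epWAT. The part of these differences in the results was not tested, beyond the counts given here without KO scWAT C695 and KO epWAT C7. Without those 2 libraries 6 genes passed with the filter applied afresh, 2 higher and 4 lower in scWAT, or 27 (14 higher, 13 lower) with the genes tested held.

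**Figure D1:**
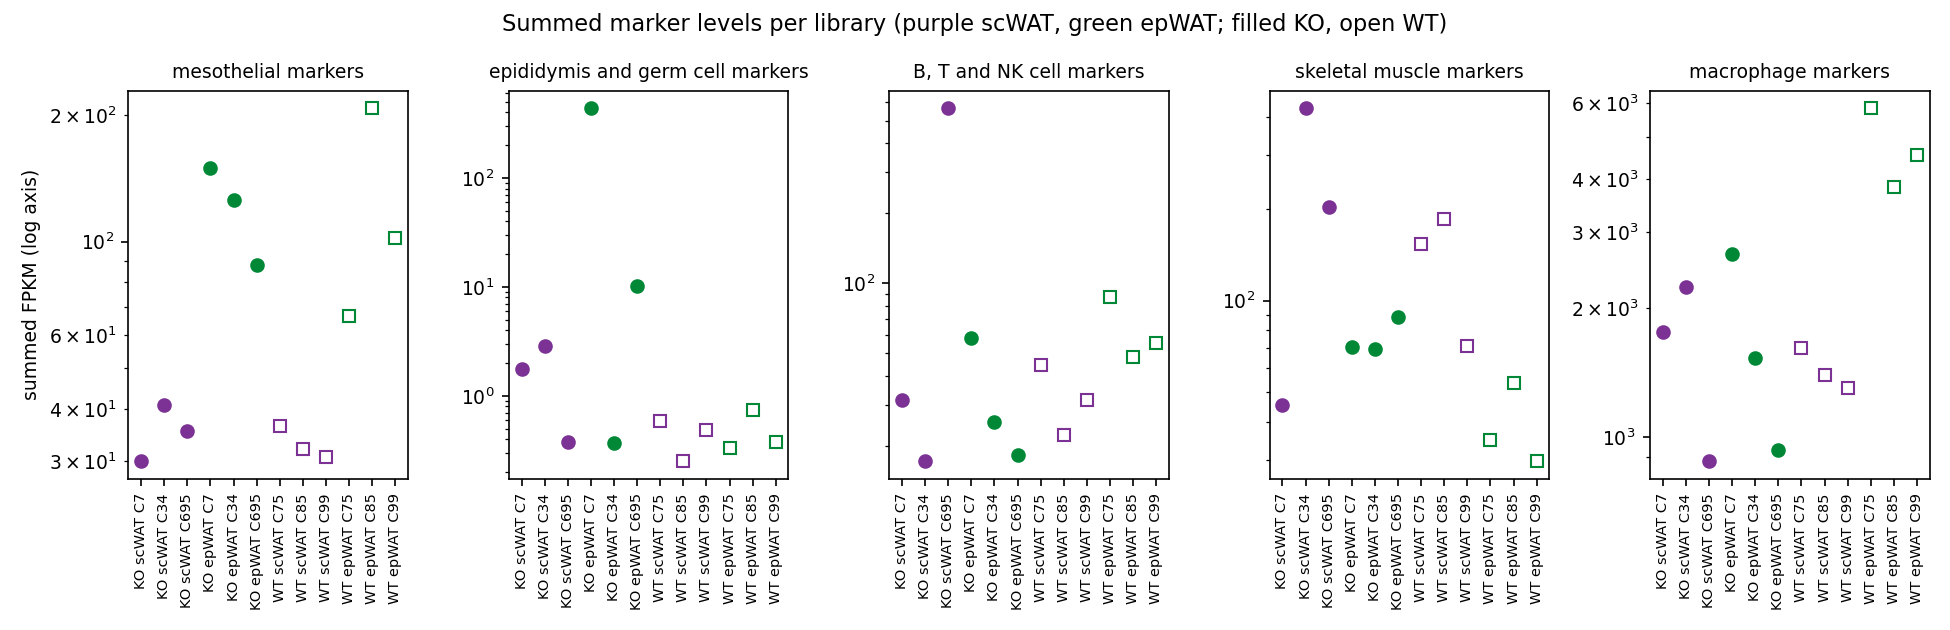
Summed FPKM (log axis, a separate scale in each panel) of 5 marker lists in each library, scWAT in purple and epWAT in green, KO as filled circles and WT as open squares, 1 point per library. Mesothelial markers were 30.09 to 40.78 FPKM in KO scWAT and 88.01 to 149.8 in KO epWAT, while epididymis and germ cell markers were high in KO epWAT C7 (437.6) and lymphocyte markers in KO scWAT C695 (565.5).

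The labelled tissue could be checked on adipocyte genes. Adipoq, which encodes the adipocyte hormone adiponectin, was at 1995, 1718 and 1735 FPKM in KO scWAT of mice C7, C34 and C695 and at 1529, 1611 and 2442 FPKM in their epWAT. The ranges overlapped, and the difference was -0.01 ± 0.22 (log2, SE; adjusted p = 0.993). All 27 mature adipocyte genes passed the filter on low values and none passed the test in limma, while 5 had an unadjusted p under 0.05, and limma-voom on recovered reads also passed none. Their median difference was -0.01, with 0.38, -0.10 and -0.16 in mice C7, C34 and C695. The targeted gene, 1700093K21Rik (chr11:23516203-23521155, minus strand, GRCm38), had 2, 0 and 0 reads in KO scWAT and 1, 0 and 0 in KO epWAT, against 7, 10 and 3 in WT scWAT and 0, 5 and 2 in WT epWAT. Exact two-sided permutation tests gave p = 0.1 for KO against WT scWAT, the smallest that 3 against 3 allows, 0.4 for KO against WT epWAT and 1 for KO scWAT against KO epWAT. Reads were too few in the epWAT libraries to tell the genotypes apart there.

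Among the transcription factors of subcutaneous fat and limb, Tbx15, Shox2, En1 and Twist1 rose in KO scWAT, each by at least 1 on the log2 scale. Tbx15, a T-box factor of limb and trunk mesenchyme, was at 6.17, 7.59 and 4.86 FPKM in scWAT of mice C7, C34 and C695, against 0.0645, 0.0309 and 0 FPKM in their epWAT. It was nearly absent from every epWAT library, and the difference was 2.79 ± 0.16 (adjusted p = 0.0024; 0.0395 with the mouse block). Shox2, a homeobox factor of the proximal limb, was at 4.45, 7.59 and 7.49 FPKM in scWAT and 0.146, 0.14 and 0.0402 FPKM in epWAT. The pads did not overlap, with a difference of 2.73 ± 0.20 (adjusted p = 0.00583; 0.0605 with the block). The exons of Shox2 overlap those of Rsrc1 on the opposite strand, and whether the counting used strand was not stated. En1, a homeobox factor of ventral limb ectoderm and trunk, was at 2.15, 2.87 and 1.55 FPKM in scWAT and 0.115, 0.022 and 0.0254 FPKM in epWAT. It was low in both pads but separated them in every mouse, by 1.58 (adjusted p = 0.0248; 0.0981 with the block). Twist1, a basic helix-loop-helix factor of mesenchyme, was abundant in both pads, at 31.8, 33.7 and 28.4 FPKM in scWAT and 14, 15.5 and 15.8 FPKM in epWAT. Its difference was 1.00 ± 0.10 (adjusted p = 0.0119; 0.0795 with the block and 0.0647 after upper-quartile scaling).

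Of the 23 factors on that list 12 passed the filter on low values, 4 rose and none fell. The median difference was 1.12, against 0.06 over all tested genes. It was 0.40 over the 11 members tested in WT, a different set that leaves out En1. Over the members tested in KO the medians in WT mice C75, C85 and C99 were 0.65, 0.65 and 0.85. The depot difference in KO minus that in WT had a median of 0.07 over 14 members, and none passed. After upper-quartile scaling that median was -0.01 and none passed. Tbx15, Shox2 and En1 reached an FPKM of 1 only in scWAT, so they were tested only through the pad where they were high. The medians in mice C7, C34 and C695 were 1.15, 1.37 and 0.89. With the mouse block 1 member passed, and the count was 4 with limma-voom and 3 after upper-quartile scaling. Without KO scWAT C695 and KO epWAT C7 fresh filtering left 6 members, of which none passed, with a median of 0.34. With the genes tested held 1 passed and the median was 1.33. Tbx15 kept its call without any 1 of the 6 libraries when the genes tested were held, Shox2 likewise, Twist1 in 3 of 6 and En1 in 1 of 6 such fits.

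The Hox genes, which record position along the body axis, differed between the pads at the posterior end of the A and C clusters. Hoxc10 was at 6.97, 9.78 and 9.74 FPKM in KO scWAT and 0.728, 0.727 and 0.593 FPKM in KO epWAT. All 3 mice showed the difference, which was 2.53 ± 0.15 (adjusted p = 0.0024; 0.0416 with the block). Its exons overlap those of Hoxc5 on the same strand. Hoxa10 was at 3.63, 4.42 and 4.9 FPKM in scWAT and 0.887, 0.212 and 0.815 FPKM in epWAT, and rose by 1.72 (adjusted p = 0.0265; 0.099 with the block and 0.0638 with limma-voom). Hoxa9 was at 2.07, 2.32 and 2.51 FPKM in scWAT and 0.487, 0.218 and 0.251 FPKM in epWAT, and rose by 1.33 (adjusted p = 0.0155; 0.105 with the block). Both were higher in every scWAT library than in any epWAT library. Hoxc10, Hoxa10 and Hoxa9 reached an FPKM of 1 only in scWAT. They were therefore tested only through the pad where they were high. With the genes tested held, Hoxc10 kept its call without any 1 library, Hoxa9 in 1 of 6 and Hoxa10 in 0 of 6 such fits. The exons of Hoxa9 overlap Mir196b.

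The next gene towards the anterior of the C cluster, Hoxc9, was at 6.97, 6.62 and 6.24 FPKM in KO scWAT and 3.33, 4.28 and 4.08 FPKM in KO epWAT. The pads did not overlap, but the difference of 0.64 missed the threshold (adjusted p = 0.075). Hoxc8, at 27.3 to 40.5 FPKM in scWAT and 33.6 to 61.5 FPKM in epWAT, was the most abundant Hox gene of both pads, with overlapping ranges and a difference of -0.38. Of 35 Hox genes 19 passed the filter on low values, and 3 rose (2 with limma-voom). The median difference was 0.09, or 0.04 after upper-quartile scaling. In 6 of the 19 the pads did not overlap, against 22.4% of all tested genes. Hoxa9, Hoxa10 and Hoxc10, tested only through scWAT, were among the 6. Without KO scWAT C695 and KO epWAT C7 none passed with fresh filtering and Hoxc10 passed with the genes tested held.

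**Figure D2:**
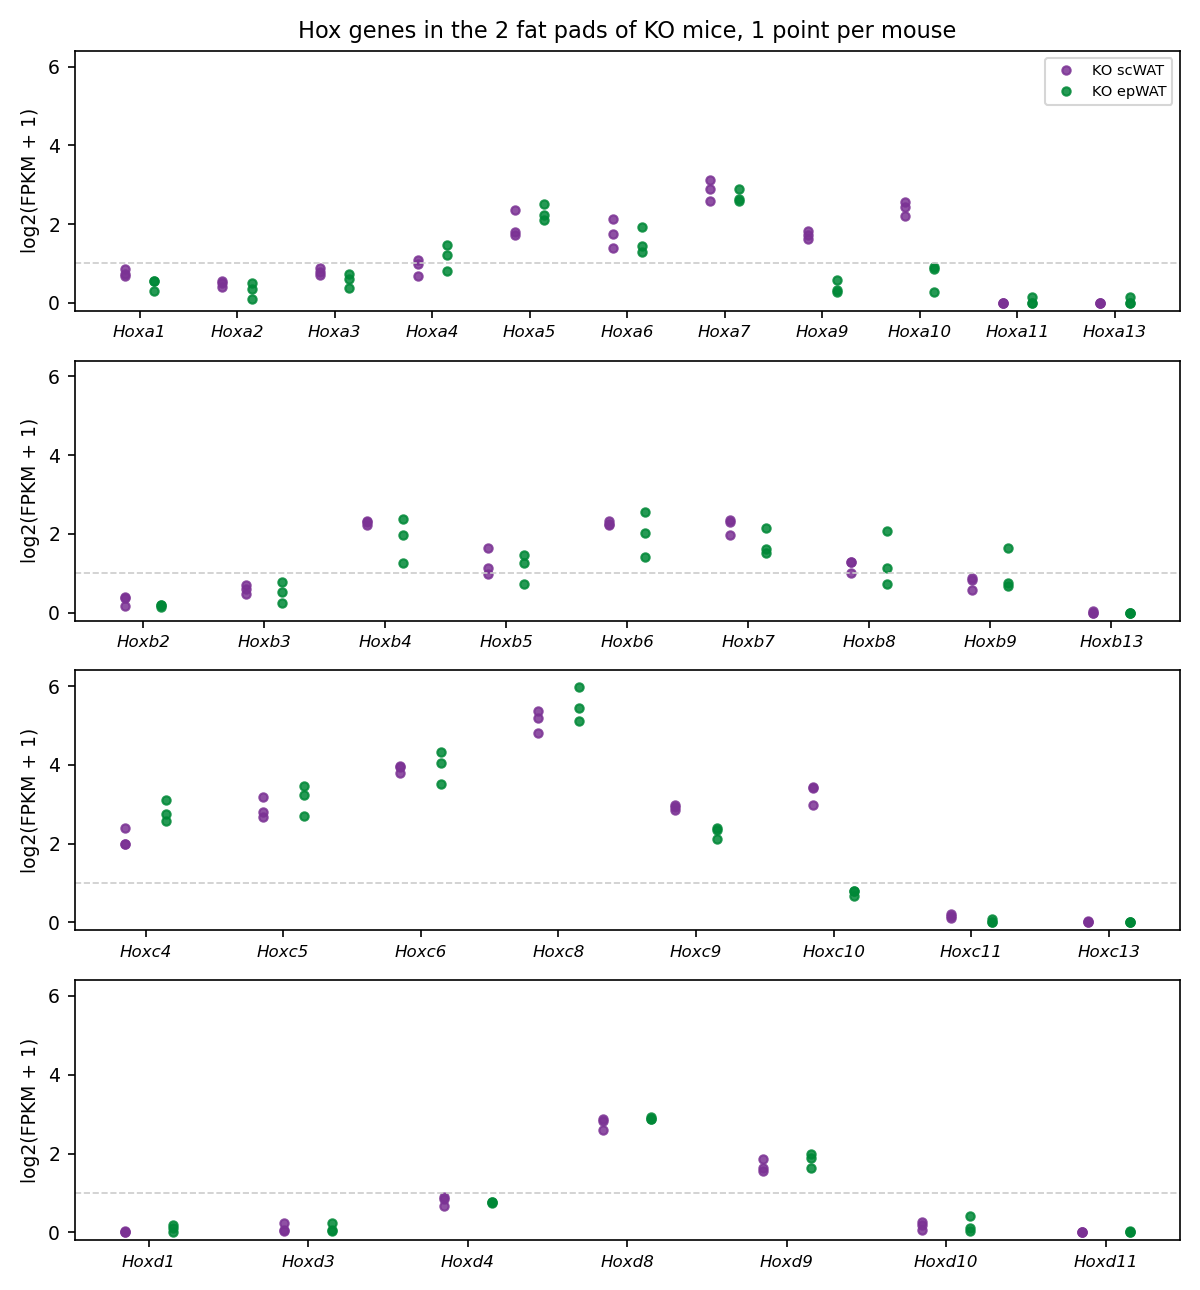
Level of each Hox gene, log2(FPKM + 1), in KO scWAT (purple) and KO epWAT (green), 1 point per mouse, 1 panel per cluster, ordered from anterior to posterior within a cluster. The dashed line marks FPKM of 1. Hoxa9, Hoxa10 and Hoxc10 separated the pads, by 1.33, 1.72 and 2.53 in scWAT minus epWAT, while Hoxc8, the most abundant, overlapped.

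Of the visceral transcription factors, Tcf21 and Wt1 fell in scWAT, while the list as a whole was mixed in direction. Tcf21, a basic helix-loop-helix factor of visceral mesoderm, was at 0.0253, 0 and 0 FPKM in KO scWAT and 2.75, 2.44 and 2.44 FPKM in KO epWAT. It was essentially restricted to epWAT, with a difference of -1.81 ± 0.12 (adjusted p = 0.0034; 0.0605 with the block). Wt1, a zinc-finger factor of mesothelium and visceral fat progenitors, was at 0, 0.00948 and 0 FPKM in scWAT and 2.49, 2.45 and 1.53 FPKM in epWAT, and fell by 1.64 on the log2 scale (adjusted p = 0.0155; 0.0867 with the block). Of the 18 listed factors 8 passed the filter, 2 fell and none rose, both also with limma-voom. The median was -0.18, with 5 negative and 3 positive differences, the largest 1.29. Tcf21 and Wt1 reached an FPKM of 1 only in epWAT, so they were tested only through that pad. With the mouse block, or without KO scWAT C695 and KO epWAT C7, none passed. In WT 6 members were tested, Wt1 not among them, 1 passed as higher and 1 as lower in scWAT, and the median was 0.08.

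Of the gene lists used here, the mesothelial one held the most calls. Of its 16 markers 13 passed the filter on low values, 8 fell in scWAT and none rose, with a median of -1.98 and medians of -2.80, -2.18 and -2.09 in mice C7, C34 and C695. The fall was -3.95 ± 0.17 for Upk3b and -3.47 ± 0.16 for Msln. Upk3b, a uroplakin of the mesothelial surface, was at 0, 0.266 and 0.0162 FPKM in scWAT and 13.8, 19.4 and 14.7 FPKM in epWAT. Msln, which encodes mesothelin, was at 0.0562, 0.361 and 0.162 FPKM in scWAT and 10.3, 14.7 and 11.8 FPKM in epWAT. Both stood near 0 in every scWAT library (adjusted p = 0.00172 each; 0.0132 each with the block). Upk1b, a second uroplakin, was at 0, 0.133 and 0 FPKM in scWAT and 5.94, 9.05 and 5.46 FPKM in epWAT, with a difference of -2.88 ± 0.19 (adjusted p = 0.00358; 0.0395 with the block).

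Rspo1, a secreted amplifier of Wnt signalling that mesothelium expresses, was at 1.04, 0.758 and 0.975 FPKM in scWAT and 9.79, 9.13 and 8.39 FPKM in epWAT. Unlike the uroplakins it was measurable in every scWAT library, and its difference was -2.39 ± 0.11 (adjusted p = 0.00172; 0.0395 with the block). The other called markers were Slpi, which encodes a protease inhibitor, at -2.99 (adjusted p = 0.026; 0.0987 with the block), Nkain4 at -1.98 (0.00801; 0.0525), Lrrn4 at -1.90 (0.00583; 0.0525) and the membrane protein Gpm6a at -1.80 (0.0139; 0.0625). Krt19, a keratin, and Aldh1a2, which makes retinoic acid, had differences of -1.95 and -1.77 and missed the threshold (adjusted p = 0.0954 and 0.0833). Cldn15 was the 1 tested marker with a positive difference, 0.63 (adjusted p = 0.269), and at 24.5 to 33.3 FPKM it made up most of the scWAT sum. The list summed to 30.09 to 40.78 FPKM in scWAT and 88.01 to 149.8 FPKM in epWAT. With the mouse block 4 members passed, and limma-voom passed 5 of the 9 it tested. Upk3b, Msln, Upk1b, Lrrn4 and Nkain4 reached an FPKM of 1 only in epWAT. They were therefore tested only through the pad where they were high. Without KO scWAT C695 and KO epWAT C7 the count was 1 with fresh filtering, with a median of -1.90 over 6 members. It was 4 with the genes tested held, with a median of -1.94. In RNA from a whole pad, fewer cells of a type and less RNA per cell cannot be told apart.

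**Figure D3:**
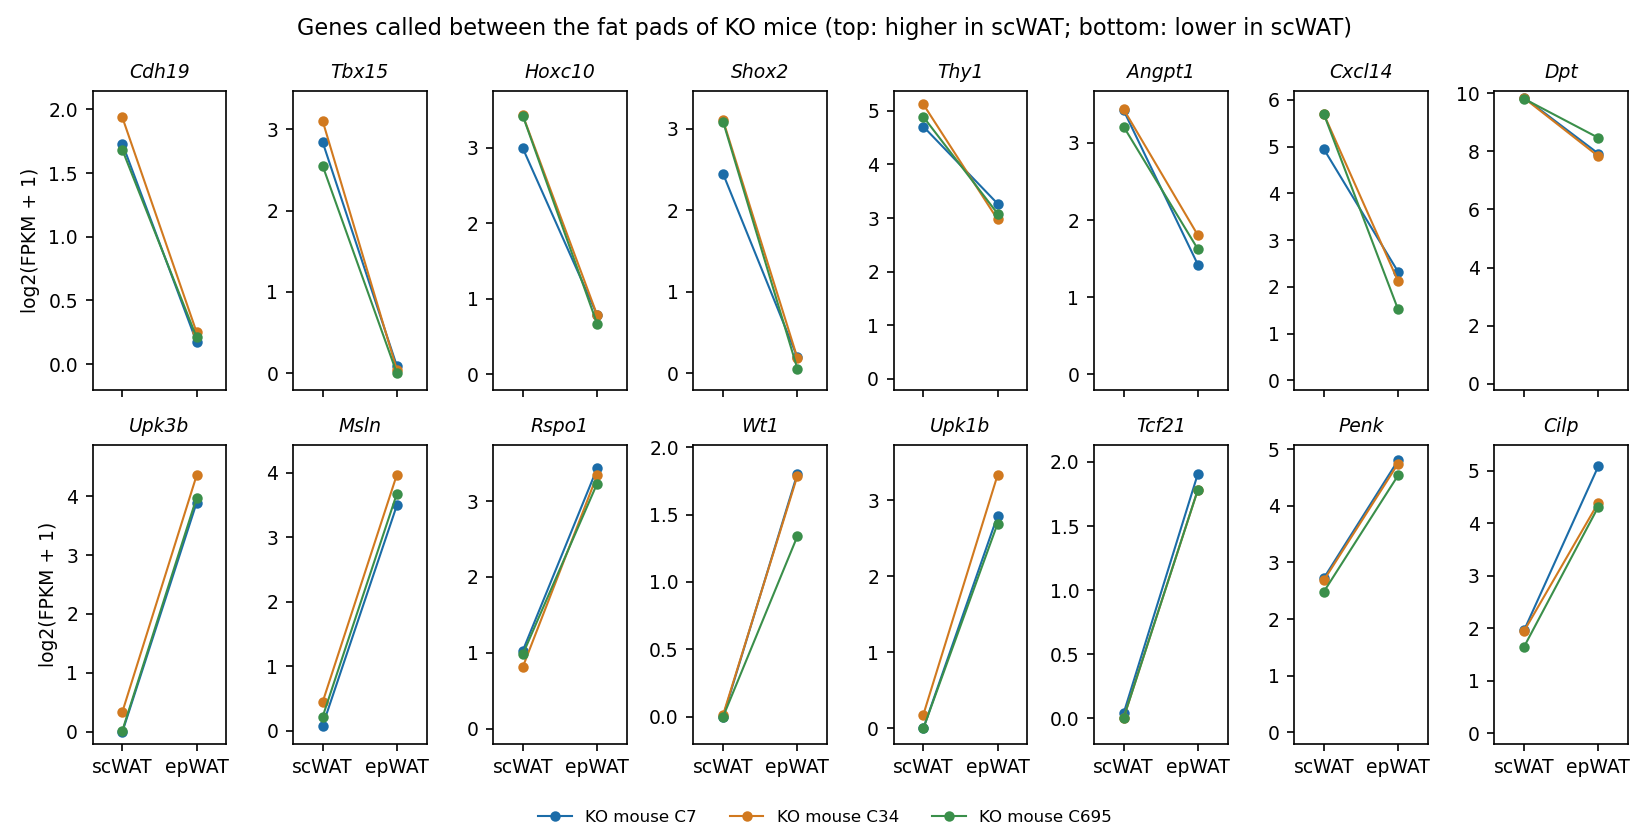
Levels, log2(FPKM + 1), of 16 called genes in scWAT (left) and epWAT (right) of the 3 KO mice, with a line joining the pads of 1 mouse and a separate vertical scale from about 0 in each panel. The top row rose and the bottom row fell in scWAT, with differences between 3.46 (Cxcl14) and 1.57 (Cdh19) in the top row and between -3.95 (Upk3b) and -1.64 (Wt1) in the bottom row.

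Genes of the nerve sheath rose in KO scWAT. Cdh19, a cadherin of Schwann cell precursors, was at 2.32, 2.83 and 2.21 FPKM in scWAT and 0.127, 0.189 and 0.156 FPKM in epWAT, a difference of 1.57 ± 0.13 (adjusted p = 0.00783; 0.0742 with the block). Mbp, a myelin protein, was at 11.5, 14.2 and 13.2 FPKM in scWAT and 5.78, 5.7 and 5.77 FPKM in epWAT, a difference of 1.04 ± 0.10 (adjusted p = 0.0119; 0.0795 with the block). Cdh19 and Mbp were higher in each scWAT library than in any epWAT library. Of the 12 listed markers 8 passed the filter, 3 rose (2 with limma-voom, 1 with the mouse block) and the other 5 also had positive differences. The median over the 8 was 1.02. By mouse, 1 of the 8 differences was negative in C34 and 2 in C695. After upper-quartile scaling 3 rose, 6 of the 8 differences were positive and 2 negative, and the median was 0.95. Pmp22, a myelin protein made by many cell types, was at 95.7, 117 and 97.9 FPKM in scWAT and 90.2, 93.7 and 112 FPKM in epWAT, with a difference of 0.07 (adjusted p = 0.836). Cdh19 reached an FPKM of 1 only in scWAT. Without KO scWAT C695 and KO epWAT C7 the count was 0 with fresh filtering, under which 4 members were tested with a median of 0.19. It was 1 with the genes tested held, with a median of 1.07.

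Thy1, Dpt, Cxcl14, Angpt1 and H2-Q10 were among the other genes that rose. Thy1, a surface glycoprotein of fibroblasts and T cells, was at 25.1, 33.8 and 28.6 FPKM in KO scWAT and 8.63, 6.85 and 7.47 FPKM in KO epWAT. Its difference was 1.80 ± 0.14 (adjusted p = 0.00583; 0.0698 with the block). The B, T and NK cell marker sum given above was high in scWAT of C695, and its part in this difference was not tested. Dpt, the matrix protein dermatopontin, was among the most abundant called genes, at 924, 913 and 897 FPKM in scWAT and 242, 227 and 353 FPKM in epWAT. Its difference of 1.76 ± 0.18 (adjusted p = 0.0155; 0.0795 with the block) was the single call among 32 collagens and matrix genes, whose median was 0.03, -0.07 with upper-quartile scaling, and 0.42 without KO scWAT C695 and KO epWAT C7 with the genes tested held. Cxcl14, a chemokine, was at 29.9, 50.9 and 51 FPKM in scWAT and 4, 3.35 and 1.86 FPKM in epWAT, a difference of 3.46 ± 0.29 (adjusted p = 0.00783; 0.0718 with the block). Angpt1, a ligand of the endothelial receptor Tek, was at 9.73, 9.84 and 8.27 FPKM in scWAT and 1.68, 2.49 and 2.08 FPKM in epWAT, a difference of 1.74 (adjusted p = 0.00583; 0.0605 with the block), and its exons overlap those of Gm17473 on the opposite strand. None of 15 blood vessel endothelial markers passed in limma or limma-voom, none had an unadjusted p under 0.05, and their median was 0.01. H2-Q10, a class I histocompatibility gene with close paralogs whose reads may be shared, was at 20.4, 26.8 and 14.4 FPKM in scWAT and 2.15, 1.06 and 1.2 FPKM in epWAT, a difference of 3.11 ± 0.26 (adjusted p = 0.00795; 0.0605 with the block).

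On the epididymal side, Penk, the precursor of the enkephalin opioid peptides, was at 5.6, 5.43 and 4.59 FPKM in KO scWAT and 26.9, 25.8 and 22.2 FPKM in KO epWAT. It was present in both pads and lower in scWAT of every mouse, by -2.06 ± 0.11 (adjusted p = 0.0024; 0.0277 with the block), and its exons overlap those of A830012C17Rik on the opposite strand. Cilp, a cartilage matrix protein, was at 2.89, 2.85 and 2.13 FPKM in scWAT and 33, 20 and 18.9 FPKM in epWAT, a difference of -2.75 ± 0.22 (adjusted p = 0.00783; 0.0395 with the block). Unc119, a lipid-binding trafficking protein, was at 16.2, 16.6 and 19 FPKM in scWAT and 39.8, 42.9 and 40 FPKM in epWAT. That difference, -1.20 ± 0.09, was modest but tight across mice (adjusted p = 0.00583; 0.0625 with the block). Fam174b at -1.66, Akr1c13 at -1.56, the membrane-shaping protein Reep6 at -2.0 and Tnfrsf11b, which encodes the decoy receptor osteoprotegerin, at -1.94 also fell, each with an adjusted p over 0.05 under the block. Akr1c13 has close paralogs. Vat1l at 1.81, the homeobox factor Zfhx4 at 1.27 and Ly6e at 1.14 rose, and likewise did not pass with the block. Vat1l and Zfhx4 reached an FPKM of 1 only in scWAT, and Tnfrsf11b only in epWAT. Each was tested only through the pad where it was high.

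Metabolic lists gave few calls. Scd2, a stearoyl-CoA desaturase, was at 90.3, 99.9 and 101 FPKM in scWAT and 193, 199 and 171 FPKM in epWAT, and fell by 0.94 on the log2 scale (adjusted p = 0.0155; 0.097 with the block). It was the 1 call among 23 tested genes of fatty acid and triglyceride synthesis, whose median was -0.28. Limma-voom tested 15 of these genes, Scd2 not among them, and passed none. Nsdhl, an enzyme of cholesterol synthesis, was at 13.5, 12.1 and 14 FPKM in scWAT and 22.6, 20.2 and 22.7 FPKM in epWAT and fell by 0.68 (adjusted p = 0.0409; 0.102 with the block). All 21 tested sterol synthesis genes had negative differences, with a median of -0.33 (-0.60, -0.33 and -0.20 in mice C7, C34 and C695), and 7 had an unadjusted p under 0.05. Upper-quartile scaling passed 3 of them, and their median was then -0.43 against -0.03 over all genes.

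Of 14 tested thermogenic genes 2 rose and none fell, with a median of 0.45, and 1 of 11 passed with limma-voom. None passed with the mouse block or without KO scWAT C695 and KO epWAT C7. Cox8b, a cytochrome c oxidase subunit of brown and beige fat, was at 56.3, 51.7 and 58.4 FPKM in scWAT and 11.4, 10.8 and 18.9 FPKM in epWAT. The pads were far apart, by 1.98 (adjusted p = 0.0155; 0.0605 with the block). Lhx8, a homeobox factor enriched in brown fat, was at 1.64, 1.51 and 1.51 FPKM in scWAT and 0.262, 0 and 0 FPKM in epWAT, a difference of 1.24 (adjusted p = 0.0265; 0.11 with the block and 0.078 with limma-voom). Lhx8 reached an FPKM of 1 only in scWAT, so it was tested only through that pad. Cidea, a lipid droplet protein of thermogenic fat, was at 14.5, 9.18 and 22.1 FPKM in scWAT and 1.97, 1.49 and 6.24 FPKM in epWAT, and with an adjusted p of 0.142 it did not pass. Ucp1, the uncoupling protein of thermogenic fat, was at most 0.18 FPKM in any KO library and was not tested. The 58 nuclear respiratory chain genes gave no call in limma or limma-voom, 2 had an unadjusted p under 0.05, and their median of 0.08 became -0.03 after upper-quartile scaling, equal to that of all genes.

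Among adipokines, Lep, which encodes leptin, was at 648, 549 and 772 FPKM in scWAT and 1163, 1176 and 1133 FPKM in epWAT. The pads did not overlap, but the difference of -0.83 missed the threshold (adjusted p = 0.0887). Agt, which encodes angiotensinogen, was at 21.1, 24.8 and 7.08 FPKM in scWAT and 94, 143 and 102 FPKM in epWAT, with scWAT of C695 the lowest. Its difference of -2.75 missed the threshold with all libraries (adjusted p = 0.0657) and passed without KO scWAT C695 and KO epWAT C7 with the genes tested held (0.0495), though not with fresh filtering (0.0624). None of the 21 tested adipokines passed in limma or limma-voom, and 7 had an unadjusted p under 0.05.

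Interferon-stimulated genes leaned towards scWAT without a call. All 22 tested members had positive differences, with a median of 0.95 and medians of 0.57, 1.41 and 0.63 in mice C7, C34 and C695. In 18 the pads did not overlap and 18 had an unadjusted p under 0.05, against 22.4% and 14.6% of all tested genes. None of the 22 passed in limma or limma-voom. Irf7, the interferon regulatory factor that amplifies the type I response, was at 20.1, 28.2 and 13.8 FPKM in scWAT and 6.48, 5.11 and 4.98 FPKM in epWAT, a difference of 1.69 (adjusted p = 0.0538). Gbp3, a guanylate-binding protein, was at 18.1, 17.4 and 15.3 FPKM in scWAT and 10.9, 8.47 and 8.14 FPKM in epWAT, a difference of 0.83 (adjusted p = 0.0635). The list median was 1.10 without KO scWAT C695 and KO epWAT C7.

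Macrophage genes did not separate the KO pads in 1 direction. Adgre1, which encodes the F4/80 antigen, was at 31.4, 33.4 and 6.61 FPKM in scWAT and 50.3, 27.8 and 13.5 FPKM in epWAT. Both pads of C695 were low and the ranges overlapped, with a difference of -0.44 (adjusted p = 0.809). The 22 markers summed to 1759, 2235 and 880.3 FPKM in scWAT and 2675, 1533 and 932.6 FPKM in epWAT of mice C7, C34 and C695. None passed in limma or limma-voom, none had an unadjusted p under 0.05, and the medians in the 3 mice were -0.70, 0.54 and -0.26. The median over the mice was -0.05, and 0.70 without KO scWAT C695 and KO epWAT C7. The 15 genes of lipid-associated macrophages likewise gave no call in limma or limma-voom, with 1 unadjusted p under 0.05 and a median of -0.39, or 0.60 without those 2 libraries. Of 21 tested cell cycle genes none passed in limma or limma-voom, none had an unadjusted p under 0.05, and the median was -0.06, or 0.22 and 0.20 without those 2 libraries with fresh filtering and with the genes tested held.

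**Figure D4:**
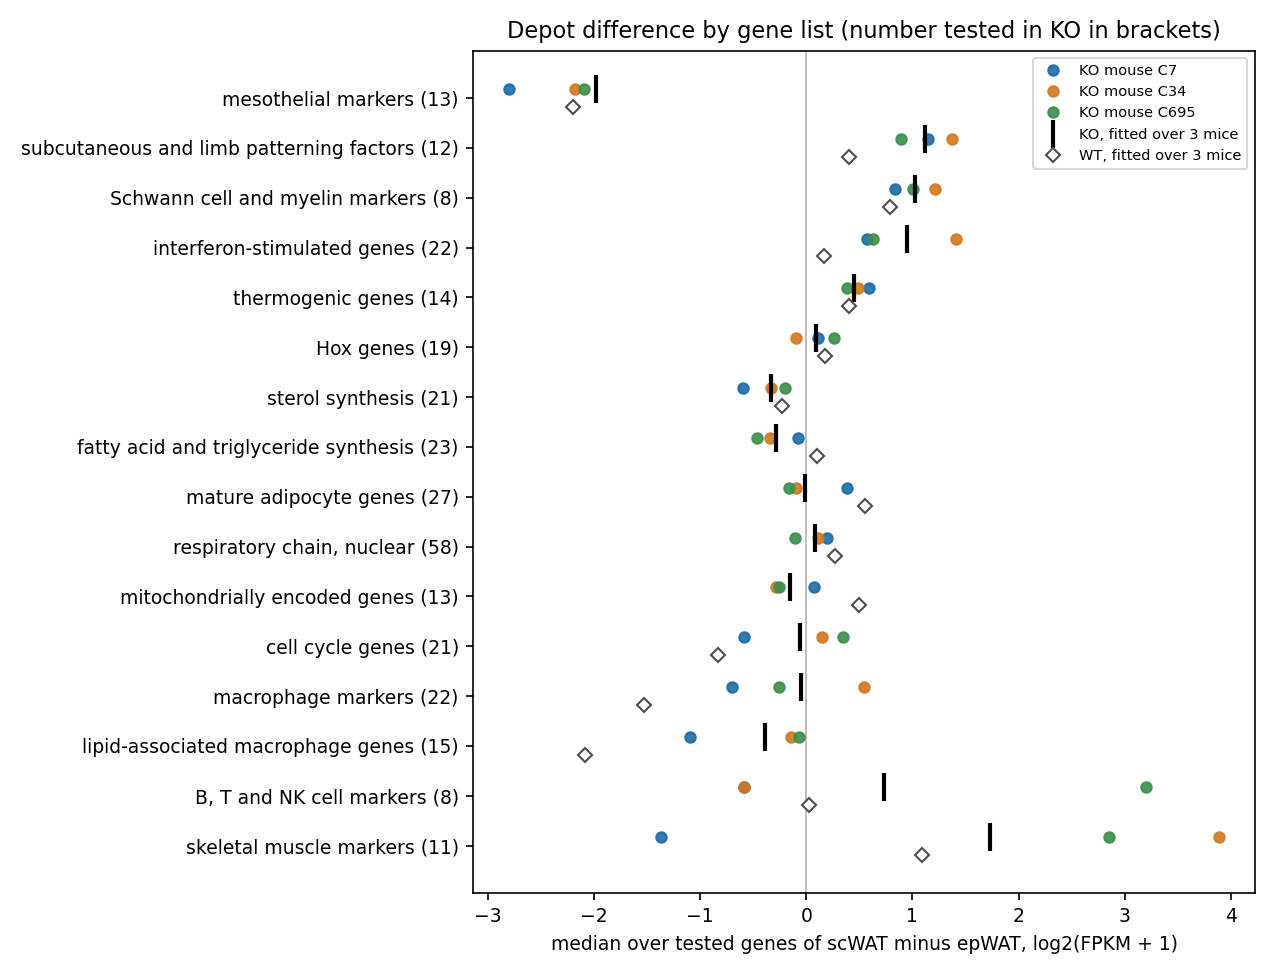
Median over the tested genes of each list of scWAT minus epWAT, log2(FPKM + 1), for each KO mouse (coloured points), for the fit over the 3 KO mice (black bar) and for the fit over the 3 WT mice (open diamond). Mesothelial markers lay at -1.98 in KO and -2.20 in WT, macrophage markers at -0.05 in KO and -1.53 in WT. Mice C7 and C34 share 1 point, -0.59, for B, T and NK cell markers. The WT medians are over the genes tested in WT.

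The WT pads served to show where the KO pads differed. In WT mice the same test passed 2852 of 12760 genes (22.4%), 956 higher (7.49%) and 1896 lower (14.9%) in scWAT, or 1462 higher and 1430 lower after upper-quartile scaling. Of the 90 KO calls 83 were tested in WT, 76 had the same direction there and 56 (67.5% of the 83) passed in that direction. Among the calls higher in KO scWAT 28 of the 34 tested in WT (82.4%) did so, and among those lower 28 of 49 (57.1%). Over all 12234 genes tested in both genotypes 50.4% had the same direction. In 60 of the 76 genes the difference was smaller in size in WT than in KO, the genes having been chosen on their KO values. The WT differences were 2.50 for Tbx15, 3.17 for Hoxc10 and 2.33 for Shox2, and -3.87 for Upk3b, -3.50 for Msln, -2.33 for Rspo1 and -1.62 for Tcf21.

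The genes called between the WT pads were also read in KO, the genes now having been chosen on their WT values. Of the WT calls 2679 were tested in KO, where 1554 had the same direction and 56 passed. The 945 genes higher in WT scWAT had a median difference of 0.12 in KO and 0.47 in WT, and 71.4% kept their direction in KO. The 1734 genes lower in WT scWAT had a median of 0.00 in KO and -0.59 in WT, and 50.7% kept their direction. The median SD within a group, over genes on the log2 scale, was 0.157 in KO scWAT and 0.152 in KO epWAT, against 0.1 in WT scWAT and 0.117 in WT epWAT. Mesothelial markers fell in scWAT of both genotypes, 8 of 13 tested in KO and 10 of 11 in WT. Macrophage markers gave 0 calls of 22 in KO and 21 lower in WT scWAT, with sums of 1304 to 1609 FPKM in WT scWAT and 3831 to 5843 FPKM in WT epWAT. Mature adipocyte genes gave 0 calls of 27 in KO and 17 higher in WT scWAT, and cell cycle genes 0 of 21 in KO and 20 of 25 lower in WT. These counts are from separate fits, and the test of the difference between genotypes for these lists is given below.

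**Figure D5:**
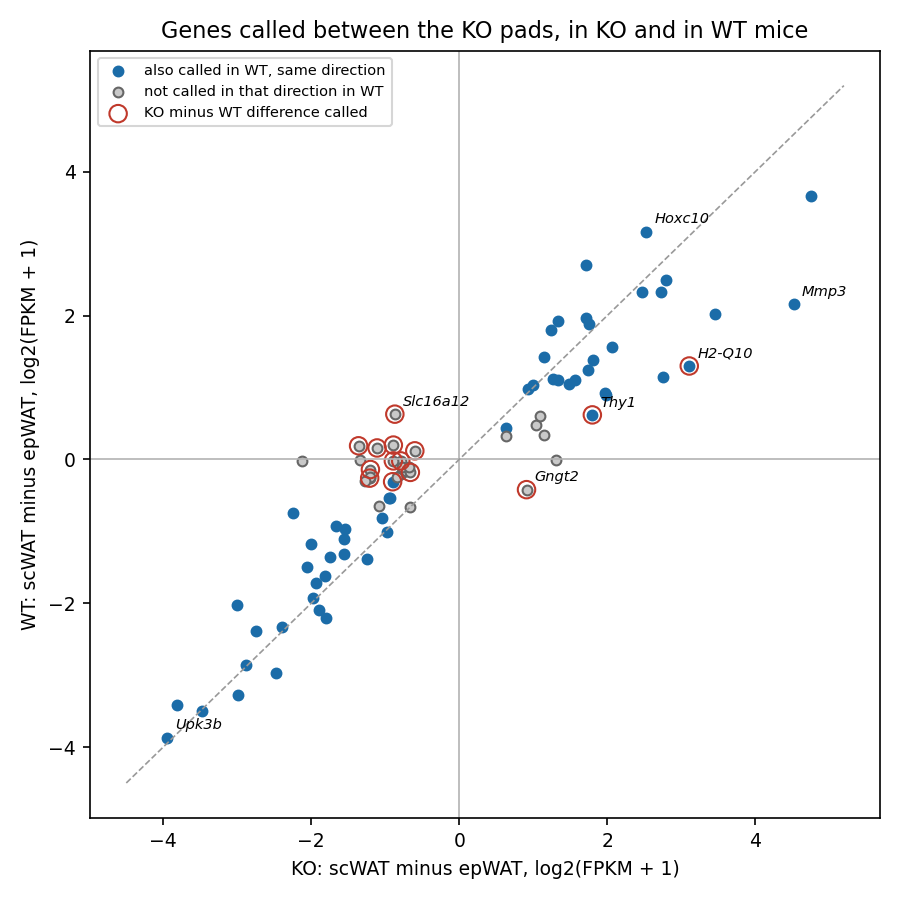
Depot difference, scWAT minus epWAT in log2(FPKM + 1), of the 83 KO calls tested in WT, in KO mice (horizontal) and in WT mice (vertical), 1 point per gene, with a dashed line of equality. Blue genes (56) also passed in WT in the same direction, grey ones did not, and red rings mark the 14 genes whose KO minus WT difference passed. Gngt2 was the 1 gene that passed in the opposite direction.

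The difference between the genotypes was itself tested as KO minus WT of the depot difference, over all 12 libraries. It passed for 139 of 13487 genes (1.03%), 79 positive and 60 negative, or 70 positive and 135 negative after upper-quartile scaling, which moved the median over all genes to -0.07 from 0.10. With mouse as a block limma passed none, with a smallest adjusted p of 0.0619 although 3483 genes had an unadjusted p under 0.05; limma-voom, run without that block, passed 125. The count was 928 without KO epWAT C7 and 0 without KO epWAT C34, WT scWAT C99 or WT epWAT C85. Of the 90 KO calls 14 passed this test, 3 of those higher and 11 of those lower in KO scWAT. Thy1 was among them, at 19.7, 17 and 16.9 FPKM in WT scWAT and 12.3, 13.1 and 8.85 FPKM in WT epWAT, with a WT difference of 0.62 and a KO minus WT difference of 1.18 ± 0.21 (adjusted p = 0.0406; 0.0648 with the block). Unc119 was at 39.8, 29 and 36.3 FPKM in WT scWAT and 39, 31.4 and 45.9 FPKM in WT epWAT, where the pads overlapped, and its KO minus WT difference was -1.06 ± 0.20 (0.0433; 0.0619 with the block).

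For Hoxc9, at 8.67, 7.46 and 8.93 FPKM in WT scWAT and 1.7, 1.55 and 2.1 FPKM in WT epWAT, the KO minus WT difference was -1.11 ± 0.15 (adjusted p = 0.0196; 0.0619 with the block). Its epWAT values were higher in each KO library than in any WT library, and its scWAT values were lower in each KO library than in any WT library. Over all 13487 genes 61.9% of the KO minus WT differences were positive and 24.4% had an unadjusted p under 0.05 (41.8% and 23.3% after upper-quartile scaling). The macrophage list had 22 of 22 positive, with a median of 1.53, 12 at an unadjusted p under 0.05 (10 after that scaling) and none passing. The interferon list had 23 of 23 positive, with a median of 0.58, 11 at an unadjusted p under 0.05 and none passing. After upper-quartile scaling 21 of the 23 were positive, the median was 0.43 and 6 had an unadjusted p under 0.05. The mesothelial list had a median of 0.02, or -0.16 after that scaling, with no unadjusted p under 0.05 among its 13 members and none passing. Mature adipocyte genes had 26 of 27 negative, with a median of -0.52, 14 at an unadjusted p under 0.05 and 2 passing. After that scaling their median was -0.74 and 2 passed. Cell cycle genes had 25 of 25 positive, with a median of 0.78, 13 at an unadjusted p under 0.05 and none passing. After that scaling their median was 0.63, with 9 at an unadjusted p under 0.05.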

How the data were processed

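RNA was extracted with Trizol and libraries were made by Illumina protocols, per the labels' protocols. The authors deposited a table of 32622 Ensembl genes for each library, whose values behave as FPKM, a unit that no source states. The submitters' processing notes name mm9, while the aligner, the counter and the strand setting are not given in the sources used here. Multiplying the FPKM by GENCODE M21 exon lengths gave reads that were whole, within 0.01, in all 12 libraries for 92.0% of 30887 detected genes, and 32553 identifiers matched that annotation (69 did not). Coordinates are therefore given for GRCm38.

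Genes reaching an FPKM of 1 in 3 or more of the libraries compared were fitted with limma 3.58.1 (R 4.3.3, trend, log2(FPKM + 1), Benjamini-Hochberg adjusted p under 0.05). Differences on that scale understate the changes of low genes. Figures and summaries used Python 3.11.15. The count model planned for raw counts was replaced because the values are FPKM, and limma-voom on the recovered reads was added as an alternative. KO and WT pads were fitted on 6 libraries each, and the KO minus WT difference on all 12. The p-values of the main fits measure the spread between libraries of the same pad from 3 mice per genotype, moderated over genes. Only the fits with mouse as a block measure the spread of the paired difference between mice.

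The pairing comes from the animal codes shared between pads in the sample titles. Deviations from the group means correlated by -0.02, 0.17 and 0.14 over genes within mice C7, C34 and C695, and by -0.21 to 0.09 between mice. The main fit had no mouse block, and the blocked adjusted p is given where it ends a call.

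The members, the 34 gene lists and the tests were chosen with earlier results of these data known. Named genes were the 15 higher and 15 lower non-overlapping calls with the smallest p, leaving out symbols of predicted genes, up to 6 calls per list (or the 2 smallest p), 16 genes fixed by name, the 10 smallest p of the genotype difference and the highest markers of other tissues. Cldn15, Krt19, Slpi, Gpm6a, Pmp22, Cidea, Hoxc8, Cyp2f2 and Gm9696 fall outside that rule and were named after their values were seen. Hoxb1, Hoxc12, Hoxd12, Hoxd13, Lcn9 and Defb20 were on the lists and were not analysed here. Single values of 2 genes among the calls are not reported here.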

Additional observations from a re-analysis of the deposited data

Results flagged for a closer look

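The depot difference, scWAT minus epWAT, differed between KO and WT mice for 15 of the 108 named genes. The test was limma's, of that difference (KO minus WT, log2, adjusted p 0.0196 to 0.0433). Of the named genes 10 were named for having the smallest p in this same test, so their passing was fixed by the choice. Over all 13487 genes 1.03% passed. None of the 15 passed with mouse as a block, with an adjusted p of 0.0619 to 0.0656, and causes were not tested. Orai3 did not pass after upper-quartile scaling either (adjusted p = 0.0829). The KO minus WT difference was 2.15 for Gm15433, 1.80 for H2-Q10, 1.33 for the G protein subunit Gngt2, 1.18 for Thy1, 0.88 for Josd2, 0.82 for Samd1 and 0.62 for the calcium channel Orai3. It was -1.40 for Efcab8, -1.37 for the actin-binding protein Nexn, -1.27 for the transcription cofactor Lmo1, -1.11 for Hoxc9, -1.06 for Unc119, -1.0 for Lep, -0.87 for the adhesion protein Mcam and -0.72 for the glypican Gpc4.

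Nexn was at 3.09, 3.12 and 3.5 FPKM in KO scWAT and 4.88, 4.32 and 4.16 in KO epWAT, against 6.21, 6.62 and 6.15 in WT scWAT and 2.12, 2.71 and 3.22 in WT epWAT. The scWAT values were thus lower than the epWAT values in KO mice and higher in WT mice. Lep was at 549 to 772 FPKM in KO scWAT and 1133 to 1176 in KO epWAT, against 1579 to 1747 in WT scWAT and 1292 to 1624 in WT epWAT. The 3 KO scWAT libraries had the lowest Lep of the 12.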

How the results depend on the processing

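With all libraries the test passed 90 genes between the KO pads, 2852 between the WT pads and 139 for KO minus WT. With the mouse as a replicate block the KO count was 12 and the KO minus WT count 0, and upper-quartile scaling with the block gave 22 and 0. The block ended other calls as printed beside each gene. Without a filter the counts were 44 (KO) and 23 (KO minus WT), and with FPKM of at least 5 the KO count was 55. A spread shared over 12 libraries gave 660 KO calls, which included 89 of the 90. A log2 difference of at least 1 was met by 550 WT calls and 57 KO minus WT calls. Upper-quartile scaling passed 107, quantile normalization 108, robust moderation 84 and limma-voom 64 KO genes.

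Leaving out 1 library, with fresh filtering, gave 7 to 36 KO calls, 1272 to 2307 WT calls and 0 to 928 KO minus WT calls; fewer genes present only in the pad that lost a library then pass the filter. With the genes tested held, chosen after seeing those values, the KO counts were 20, 28 and 84 without scWAT C7, C34 and C695 and 51, 21 and 62 without epWAT C7, C34 and C695. WT counts were then 2099, 1616 and 1289 without scWAT C75, C85 and C99. They were 1891, 2490 and 1929 without epWAT C75, C85 and C99. KO minus WT counts were 178, 27 and 180 without KO scWAT C7, C34 and C695. They were 926, 0 and 42 without KO epWAT C7, C34 and C695. Leaving out WT scWAT C75, C85 and C99 gave 2, 8 and 0. Leaving out WT epWAT C75, C85 and C99 gave 1, 0 and 16. Without both KO scWAT C695 and KO epWAT C7, an alternative also added after seeing the data, the counts were 6 (27 with the genes held) for KO and 1477 (1462) for KO minus WT. The causes of these changes were not tested.

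The KO differences that changed sign belonged to genes that passed no test. Without those 2 libraries they were 0.71 for Adgre1, 0.03 for Jun, -0.39 for Acta1 and, with the genes held, -0.01 for Cd79b. Without KO scWAT C695 they were 0.27 for Adgre1, -0.35 for Cd79b, -0.44 for Cd79a, 0.03 for Adipoq and -0.04 for Acta1. For Adipoq they were also 0.15 with quantile normalization, 0.03 without KO scWAT C34 and 0.21 without KO epWAT C695. For Acta1 they were also -0.69 without KO scWAT C34 and -0.17 without KO epWAT C7. Over each single library left out, the differences spanned -0.35 to 2.25 for Cd79b, -0.44 to 2.44 for Cd79a, -0.13 to 0.21 for Adipoq, -0.91 to 0.27 for Adgre1 and -0.69 to 1.29 for Acta1. Of the values recomputed for named genes, 2262 kept direction and side of the threshold, 476 lost a call, 37 gained one and 26 changed sign. Leaving out libraries did not change the targeted gene's side of the threshold, which 2 against 3 libraries cannot pass. Genes that did not reach 1 FPKM in 3 libraries were not tested, which left 19 of 35 Hox genes and 12 of 23 subcutaneous and limb factors.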

Other observations

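Some gene groups outside the main comparisons are given as values. Of 18 tested Wnt ligands, receptors and inhibitors, the receptor Fzd1 rose in KO scWAT, at 16.3, 15.6 and 15.1 FPKM against 9.57, 9.64 and 10 FPKM in KO epWAT (0.63, adjusted p = 0.0265 in limma; 0.129 with the block and 0.15 after upper-quartile scaling), and Rspo1 fell. Fzd1 passed in 0 of 6 fits that left out 1 library, and after upper-quartile scaling the list had 0 higher and 2 lower calls. The median of the list was -0.38, and 11 of its 18 tested members had non-overlapping pads, against 22.4% of all tested genes. Nog, which encodes the BMP antagonist noggin, fell in KO scWAT, at 0.596, 0.728 and 0.135 FPKM against 3.53, 5.12 and 3.22 FPKM in KO epWAT (-1.74, adjusted p = 0.0327; 0.0697 with the block and 0.0768 with limma-voom). It was the single call among 14 tested TGF-beta, activin and BMP signals, of which limma-voom passed none. Nog reached an FPKM of 1 only in epWAT, so it was tested only through that pad.

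The complement list had a median of 0.16 with all KO libraries and 0.88 without KO scWAT C695 and KO epWAT C7, and none of its 18 tested genes passed in limma or limma-voom, while 5 had an unadjusted p under 0.05. In muscle markers the KO mice disagreed, with list medians of -1.37, 3.89 and 2.85 in C7, C34 and C695. The 5 red cell markers had a median of 0.18 in KO and 1.39 in WT, with no call in either genotype.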
